A study of Mus musculus with 5 samples.

Results

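Coenzyme Q (ubiquinone) is the lipid that carries electrons through the inner mitochondrial membrane to respiratory complex III, and the genes described here are the mouse genes of its synthesis complex and of its lipid partners. The rows of the deposited table named Coq2, Coq3, Coq4, Coq5, Coq6, Coq7, Coq8a, Coq9, Coq10a and Coq10b were taken, 10 of the 15116 genes listed, and all 10 were measured in both groups. The rule uses gene names and no measured value. The series holds 5 bulk RNA libraries from mouse hearts. The 2 knockout libraries came from Immtfl/fl-Myh6-MCM mice and the 3 control libraries from Immt+/+-Myh6-Cre mice, and all 5 are labelled as tamoxifen-treated. Tamoxifen was given at 6 weeks of age and knockout hearts were taken 10 weeks later, with controls described as of the same age. Both recombinases are driven by the Myh6 promoter, which is active in cardiomyocytes, and not in the other cell types of the heart. The controls carry Cre and not the tamoxifen-inducible MerCreMer, so the effect of the transgene and that of the floxed allele cannot be told apart. Sex is not given for the libraries. The paper reports male mice only for the Myh6-Cre line and both sexes for the Myh6-MerCreMer line. Sex may therefore also differ between the groups, and its effect cannot be told apart from that of the genotype. The limma p-values below set the difference of the group means against the spread within the groups of these 5 samples. The spread of each gene was moderated with a mean-variance trend over all genes.

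Synthesis starts when a polyprenyl tail, built by Pdss1 and Pdss2 from mevalonate pathway units, is joined to a benzoquinone precursor by Coq2. The ring is then hydroxylated and methylated by matrix-facing enzymes that sit together in a complex on the inner membrane, and the finished lipid is reduced by several dehydrogenases and oxidised by complex III. The heart is rich in mitochondria and is among the tissues affected in inherited coenzyme Q deficiency. Immt encodes Mic60, the protein that organises cristae junctions in the same membrane.

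The changes among the 10 genes were small. Coq3, an O-methyltransferase of the ring, was higher in the knockout, and Coq8a, an atypical kinase-like protein that supports the complex, and Coq9, the lipid-binding partner of Coq7, were lower. The log2 fold changes of the 10 genes lay between -0.25 and 0.37. These 3 calls were at an adjusted p below 0.05 in a limma moderated test across all 15116 genes, with Benjamini-Hochberg adjustment. Among all genes 13.3% were called higher in the knockout and 12.9% lower (26.2% in either direction), so 1 of 10 members higher and 2 of 10 lower is close to the share of the whole table. The median log2 fold change of the 10 genes was -0.13, against -0.02 for all genes.

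The measured values are normalized CPM (read counts of 3′ tags scaled to an effective library size), deposited as a mean and a standard deviation (SD) per group. Values of single libraries were worked back from these, since each value is a number of reads divided by the effective size of its library. Libraries are named by letter in the order of that size, 15.2 and 14.1 M reads for knockout a and b, against 13.6, 13.6 and 12.1 M for control a, b and c, and the letters cannot be tied to labelled replicates. In the knockout, Immt itself stood at 15.98 and 19.8 CPM, against 249, 263 and 250 CPM in the control, a log2 fold change of -3.79 ± 0.09 (SE; limma adjusted p = 3.25e-07). A 3′ tag does not read the deleted exon, so this level does not test the deletion itself. The CPM columns summed to 947955 in the knockout and 1036320 in the control, of which transcripts encoded in mitochondrial DNA took 32.2% in the knockout and 36.7% in the control. When both columns were scaled to the same total, the log2 fold changes moved up by a median of 0.12 and the calls split into 3067 higher and 1419 lower, against 2014 higher and 1944 lower as deposited. Scaled to the same total, 20.3% of all genes were called higher and 9.39% lower. Tissue markers stood at values above 0 in both groups. The 6 cardiomyocyte markers summed to 20642 CPM in the knockout and 24627 CPM in the control. Of these, 3 were called lower (Ryr2 by 1.29, Actc1 by 0.52 and Tnnt2 by 0.33 on the log2 scale), against 12.9% of all genes. Under scaling to column totals Tnnt2 was not called (-0.20, adjusted p = 0.0738) and Myl2, named after its value was seen, was called higher (0.29, adjusted p = 0.00652). Of the other marker genes, 1 of 5 for fibroblasts (Dcn, log2 fold change -0.27) and 1 of 5 for macrophages (Lyz2, -0.53) were called lower. The share of all genes called lower was 12.9%. Under scaling to column totals Dcn was not called (-0.14, adjusted p = 0.137). None of the 4 endothelial, 4 mural and 4 erythroid markers were called. Fewer cells of a type and less RNA per cell cannot be told apart in bulk tissue, and the part of cell makeup in the results below was not tested.

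The 300 bases around the start of the 3 called members, from 250 before the annotated start to 50 after it, are shown to give the control regions of the genes that the results turn on. They are RefSeq sequences of the GRCm38.p6 build, written 5′ to 3′ on the strand of the gene, and of 2 annotated starts for Coq3 and for Coq8a the more upstream one is given.
Coq3, chr4:21879396-21879695, plus strand: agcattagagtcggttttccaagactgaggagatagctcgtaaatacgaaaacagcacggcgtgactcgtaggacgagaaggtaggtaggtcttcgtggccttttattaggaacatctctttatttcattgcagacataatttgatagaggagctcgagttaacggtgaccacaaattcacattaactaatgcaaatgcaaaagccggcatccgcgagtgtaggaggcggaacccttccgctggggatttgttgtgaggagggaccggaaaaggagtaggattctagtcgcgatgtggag
Coq8a, chr1:180195971-180196270, minus strand: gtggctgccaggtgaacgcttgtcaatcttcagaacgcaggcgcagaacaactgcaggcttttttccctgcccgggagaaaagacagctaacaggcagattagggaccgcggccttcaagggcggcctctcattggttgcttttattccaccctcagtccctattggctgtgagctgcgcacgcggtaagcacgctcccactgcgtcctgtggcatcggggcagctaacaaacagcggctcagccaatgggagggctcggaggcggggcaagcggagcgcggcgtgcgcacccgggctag
Coq9, chr8:94838163-94838462, plus strand: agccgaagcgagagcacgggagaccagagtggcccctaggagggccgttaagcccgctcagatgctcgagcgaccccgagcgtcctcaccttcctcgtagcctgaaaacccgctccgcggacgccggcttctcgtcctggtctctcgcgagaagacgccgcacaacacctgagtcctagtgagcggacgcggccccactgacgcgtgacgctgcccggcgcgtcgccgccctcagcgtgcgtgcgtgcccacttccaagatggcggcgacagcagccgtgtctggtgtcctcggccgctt
None of the 4 motifs searched on both strands occurred in these 3 windows. The 4 were the core of the NRF1 site (GCATGCGC, in 2.71% of all 32851 promoters of this length), the element of the estrogen-related receptors (TCAAGGTCA, 0.423%), the C/EBP-ATF element (TGATGCAA, 0.895%) and the E-box (CACGTG, 7.15%). Of the 9 members with a promoter in the table, Coq2 held the NRF1 core, and Coq4 and Coq10b an E-box. The windows of 40 bases with these matches in capitals are shown for comparison with the called genes.
Coq2, NRF1 core, chr5:100674282-100674321, minus strand: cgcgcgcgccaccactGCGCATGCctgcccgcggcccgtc
Coq4, E-box, chr2:29787421-29787460, plus strand: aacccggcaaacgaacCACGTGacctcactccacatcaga
Coq10b, E-box, chr1:55052676-55052715, plus strand: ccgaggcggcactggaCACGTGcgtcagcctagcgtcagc
In the Coq2 window the capitals are the reverse complement of the core. A match in these letters is a description of the sequence, and the 3 genes that hold one did not pass the test of the knockout against the control.

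**Figure D1:**
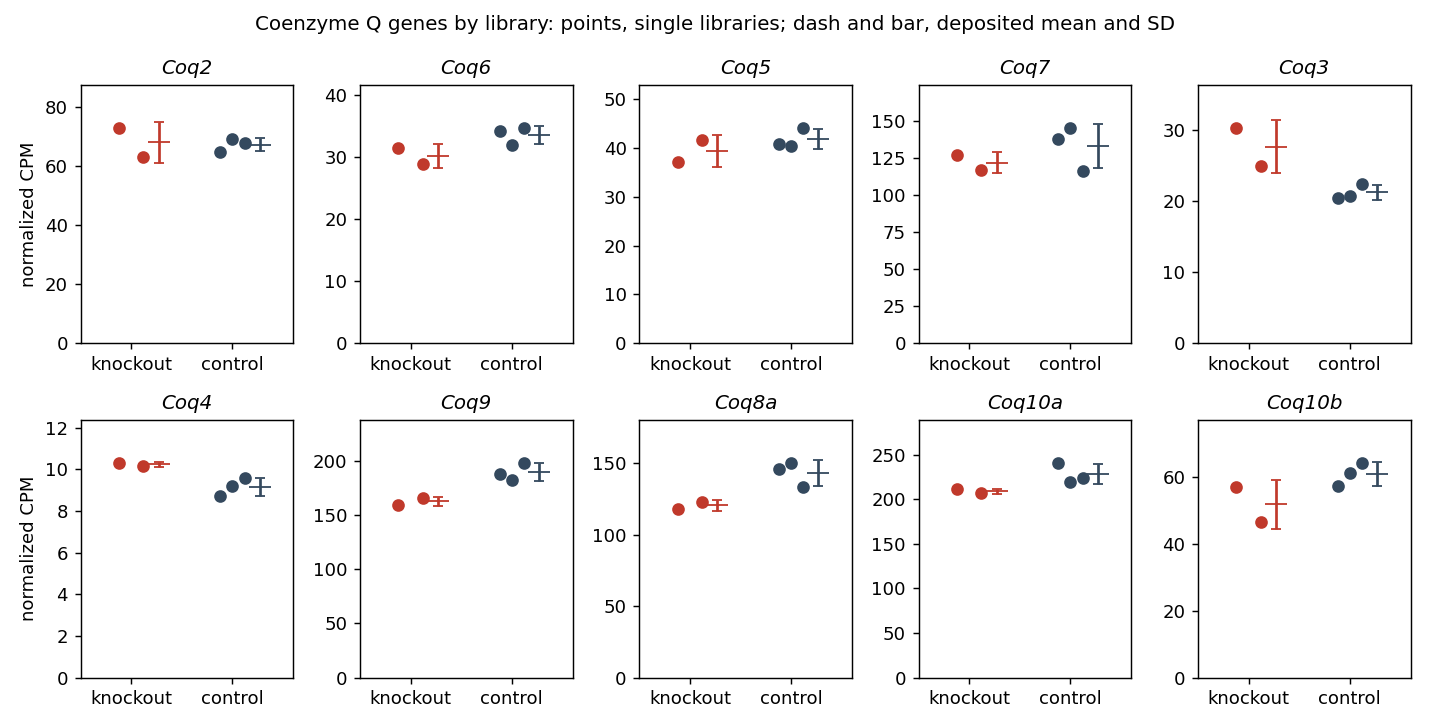
Normalized CPM (vertical axes, from 0) of the 10 coenzyme Q genes in the 2 knockout libraries (left in each panel) and the 3 control libraries (right). Points are single libraries worked back from the deposited values in the order a, b, c, and the dash with its bar is the deposited mean with its SD. Coq3 lies above the control points in both knockout libraries, and Coq8a and Coq9 lie below them.

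At the first step that joins tail and ring, the groups did not differ beyond the spread of the libraries. Coq2, which joins the tail to the ring, had 72.9 and 63.1 CPM in the knockout, against 64.8, 69.2 and 67.6 CPM in the control. The control values lay between both knockout values, and the log2 fold change was 0.02 with a 95% interval of -0.18 to 0.21 (limma adjusted p = 0.914), or 0.14 under scaling to column totals.

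Among the enzymes that modify the ring, Coq3 was the one called. Coq3 had 30.3 and 25.0 CPM in the knockout, against 20.5, 20.8 and 22.4 CPM in the control, so both knockout libraries were above the highest control. The knockout mean was 27.7 ± 3.75 CPM and the control mean 21.2 ± 1.07 CPM (SD, n = 2 and 3), 1.30-fold, with a log2 fold change of 0.37 ± 0.11 (SE; limma adjusted p = 0.0342). The reads behind these values were 461 and 352 in the knockout, against 279, 283 and 272 in the control. Under scaling to column totals the Coq3 change was 0.50 (adjusted p = 0.00892). The call was lost when knockout library a was left out (log2 fold change 0.23, adjusted p = 0.321) and when knockout b (0.0541), control a (0.11) or control b (0.0984) was left out, and it held without control c (0.0117). In the fit from group means, it held at an adjusted p of 0.0486 without the lower knockout value, that of library b.

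The hydroxylases and the other methyltransferase were not called. Coq6, a ring hydroxylase, had 31.5 and 28.8 CPM in the knockout, against 34.2, 31.9 and 34.7 CPM in the control. Its groups did not overlap, with a log2 fold change of -0.15 (95% interval -0.35 to 0.05, limma adjusted p = 0.241), or -0.03 under scaling to column totals. Coq5, the C-methyltransferase, had 37.1 and 41.7 CPM in the knockout, against 40.9, 40.4 and 44.2 CPM in the control. Its groups overlapped, and the log2 fold change was -0.08 (95% interval -0.29 to 0.12, adjusted p = 0.535), or 0.04 under scaling to column totals. Coq7, the last hydroxylase of the pathway, had 127 and 117 CPM in the knockout, against 138, 145 and 116 CPM in the control. Control library c alone reached down to the knockout values of Coq7. The log2 fold change of Coq7 was -0.13 (95% interval -0.35 to 0.09, adjusted p = 0.383) and was 0.00 under scaling to column totals, and without control library c it was -0.22 and called (adjusted p = 0.0347).

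Of the 3 partner proteins of the complex, Coq9 and Coq8a were called, both lower in the knockout. Coq9, which presents the lipid to Coq7, had 159 and 166 CPM in the knockout, against 188, 182 and 198 CPM in the control. Both knockout libraries were below the lowest control. The mean of Coq9 was 162 ± 4.53 CPM in the knockout and 190 ± 8.02 CPM in the control, 14.3% lower in the knockout, with a log2 fold change of -0.22 ± 0.07 (SE; limma adjusted p = 0.036). Coq8a had 118 and 123 CPM in the knockout, against 146, 150 and 133 CPM in the control, and its groups did not overlap either. The mean of Coq8a was 120 ± 3.59 CPM in the knockout and 143 ± 8.94 CPM in the control, 15.8% lower, with a log2 fold change of -0.25 ± 0.07 (SE; limma adjusted p = 0.0377). Coq4, a protein needed for the complex to assemble, had 10.3 and 10.2 CPM in the knockout, against 8.73, 9.19 and 9.57 CPM in the control. The knockout values of Coq4 were above all 3 controls, and the log2 fold change was 0.15 (95% interval -0.11 to 0.41, adjusted p = 0.367), or 0.28 under scaling to column totals.

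The calls of Coq8a and Coq9 depended on the scaling. Under scaling to column totals, Coq8a had a log2 fold change of -0.12 (adjusted p = 0.265) and Coq9 one of -0.09 (adjusted p = 0.323), and neither was called. Scaled to totals that leave out mitochondrially encoded transcripts they were at -0.22 (adjusted p = 0.0597) and -0.19 (adjusted p = 0.0607). The Coq8a call was also lost without knockout a (adjusted p = 0.213), knockout b (0.127), control a (0.114) or control b (0.121), and held without control c (0.00453). The Coq9 call was lost without knockout a (adjusted p = 0.196), knockout b (0.111), control a (0.087) or control b (0.0504), and held without control c (0.039).

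The lipid partners Coq10a and Coq10b are START-domain proteins that bind coenzyme Q, a role best known from the yeast protein. Coq10a had 211 and 207 CPM in the knockout, against 241, 220 and 224 CPM in the control. The knockout values were the lower ones, with a log2 fold change of -0.13 (95% interval -0.27 to 0.02, limma adjusted p = 0.193), and of 0.00 under scaling to column totals. Coq10b had 56.9 and 46.6 CPM in the knockout, against 57.3, 61.1 and 64.2 CPM in the control. Knockout library a of Coq10b lay just under the lowest control and library b well under it, and the log2 fold change was -0.23 (95% interval -0.461 to -0.0032, adjusted p = 0.127), or -0.10 under scaling to column totals. Coq10b made up 21.2% and 18.4% of the tags of the pair in the knockout, against 19.2%, 21.8% and 22.3% in the control. The shares overlapped, with a difference of -1.28 percentage points (exact permutation test, two-sided p = 0.4, where 0.2 is the smallest p that 2 against 3 libraries allow).

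**Figure D2:**
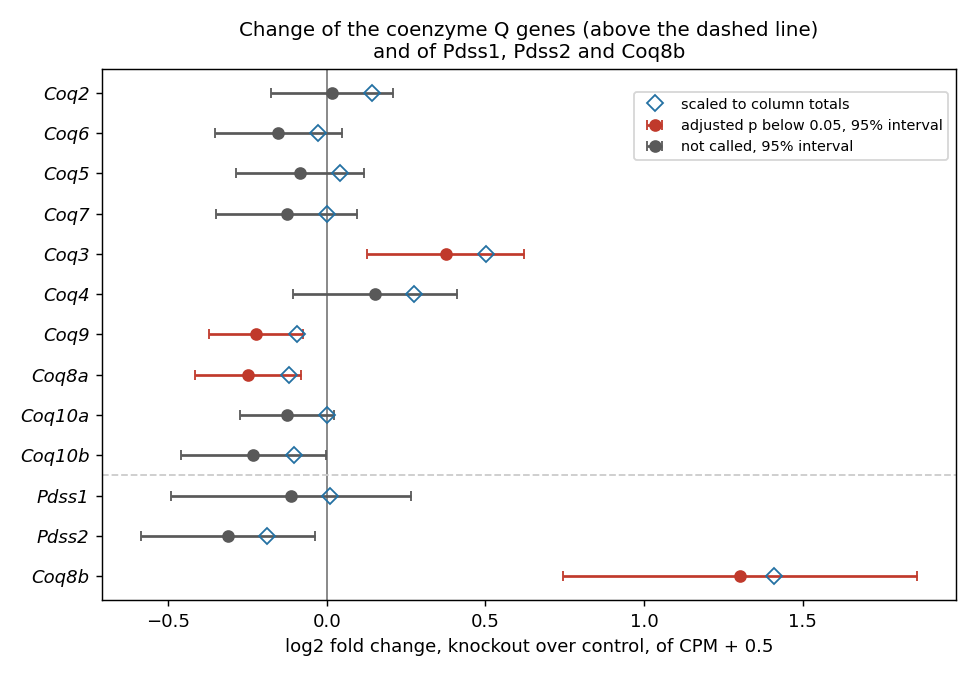
Log2 fold change of CPM + 0.5, knockout over control (horizontal axis), for the 10 coenzyme Q genes and for Pdss1, Pdss2 and Coq8b, with filled points and bars for the estimate and its 95% interval. Open diamonds give the change after scaling to column totals, which moves each estimate up by about 0.12 and takes Coq5, Coq7, Coq10a and Pdss1 from below 0 to 0 or just above it.

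Across the 10 genes, both knockout libraries lay above all controls for 2 (Coq3 and Coq4) and below all controls for 5 (Coq6, Coq8a, Coq9, Coq10a and Coq10b). Coq2, Coq5 and Coq7 overlapped. Over the 12752 genes with values in all 5 libraries, 22.9% lay above and 28.4% lay below in the same way. The summed level of the 10 genes was 854 and 828 CPM in the knockout, against 939, 930 and 914 CPM in the control. As a share of the column total, the sum was 0.0887% in the knockout and 0.0895% in the control. The spread within the knockout was widest for Coq10b, Coq3 and Coq2, with coefficients of variation of 14.1%, 13.6% and 10.2%. All 3 were higher in knockout library a than in b, as were Coq4, Coq6, Coq7 and Coq10a. Coq5, Coq8a and Coq9 were lower in library a than in b. In the control the widest was that of Coq7, at 11.2%.

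The genes that build the tail and the paralog of Coq8a were measured beside the members. Pdss1, the catalytic subunit of the prenyl diphosphate synthase, had 10.6 and 8.39 CPM in the knockout, against 8.73, 9.98 and 12.2 CPM in the control, with overlapping groups (log2 fold change -0.11, 95% interval -0.49 to 0.26, limma adjusted p = 0.667; 0.01 under scaling to column totals). Pdss2, the other subunit, had 10.4 and 9.45 CPM in the knockout, against 12.8, 13.3 and 11.3 CPM in the control. The knockout values of Pdss2 were the lower ones, with a log2 fold change of -0.31 (95% interval -0.59 to -0.04, adjusted p = 0.0909), or -0.19 under scaling to column totals, and without control library c it was called at -0.38 (adjusted p = 0.0282).

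Coq8b, the paralog of Coq8a, was higher in the knockout while Coq8a was lower. Coq8b had 4.57 and 5.37 CPM in the knockout, against 1.98, 0.991 and 2.19 CPM in the control, so the groups stood well apart. These are 69.5 and 75.5 reads in the knockout, against 27, 13.5 and 26.5 reads in the control. The fractions of a read may come from Coq8b reads shared with another feature, which was not tested. The mean was 4.97 ± 0.562 CPM in the knockout and 1.72 ± 0.639 CPM in the control, 2.89-fold, with a log2 fold change of 1.30 ± 0.24 on the scale of CPM + 0.5 (SE; limma adjusted p = 0.00498) and 1.41 under scaling to column totals (adjusted p = 0.0029). Without knockout library a its adjusted p was 0.0502, without knockout b it was 0.0826, and it was between 0.000694 and 0.0131 without 1 control. In the fit from group means, the adjusted p was 0.0469 without the lower knockout value, that of library a. Of the tags of Coq8a and Coq8b together, Coq8b gave 3.74% and 4.18% in the knockout, against 1.34%, 0.655% and 1.62% in the control. The shares did not overlap and differed by 2.76 percentage points (exact permutation test, two-sided p = 0.2, the smallest that 2 against 3 libraries allow).

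**Figure D3:**
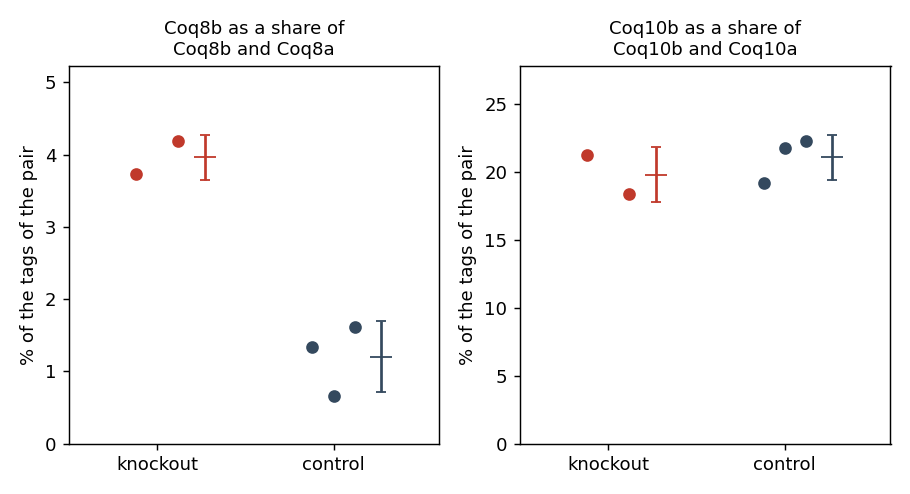
Share of the tags of each paralog pair (vertical axes, % from 0) in knockout libraries (left) and control libraries (right), with points for single libraries and a dash with bar for the mean and SD. Coq8b has 3.74% and 4.18% of its pair in the knockout, against 0.655% to 1.62% in the control, and the shares of Coq10b overlap between the groups.

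Of the 12 other genes of the coenzyme Q pathway, 2 were called higher and none lower, against 13.3% and 12.9% of all genes, and the median log2 fold change was -0.02. Beside Coq8b this was Fdx2, a mitochondrial ferredoxin of iron-sulfur cluster synthesis, with 11.5 ± 0.465 CPM in the knockout and 6.54 ± 0.352 CPM in the control (SD; log2 fold change 0.77 ± 0.12, limma adjusted p = 0.00195). Under scaling to column totals 4 of the 12 were called higher, against 20.3% of all genes. Of the 8 genes of the mevalonate pathway and prenyl supply, 2 were called lower and none higher (median -0.02), against 12.9% and 13.3% of all genes. Pmvk, phosphomevalonate kinase, had 2.57 and 2.91 CPM in the knockout, against 6.16, 5.21 and 5.36 CPM in the control (log2 fold change -0.91 ± 0.15, adjusted p = 0.00285). Its adjusted p was 0.0505 without knockout library a in the fit on single libraries, and 0.0449 without that same value in the fit from group means. Idi1, isopentenyl diphosphate isomerase, had 2.08 ± 0.638 CPM in the knockout and 3.81 ± 0.178 CPM in the control (log2 fold change -0.74 ± 0.19, adjusted p = 0.0211). Leaving out the lower knockout value of Idi1 moved its adjusted p to 0.178.

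A further list held 14 genes whose products reduce coenzyme Q or, for Etfa and Etfb, pass electrons to Etfdh, which does. Complex I was not part of this list. Among the 13 measured of these 14 genes, 1 was called higher and 2 lower (median -0.07), against 13.3% and 12.9% of all genes. Nqo1, a cytosolic quinone reductase, had 175 and 148 CPM in the knockout, against 43.3, 42.8 and 55.7 CPM in the control, 3.41-fold, with a log2 fold change of 1.76 ± 0.13 (limma adjusted p = 4.63e-05). Both knockout values were far above every control, and Nqo1 was called under every setting tried. Sdhd, a membrane anchor of complex II, had 249 and 250 CPM in the knockout, against 323, 344 and 307 CPM in the control (log2 fold change -0.38 ± 0.07, adjusted p = 0.00327; -0.25 under scaling to column totals, adjusted p = 0.0206). Prodh, proline dehydrogenase, had 5.53 and 6.54 CPM in the knockout, against 10.3, 7.27 and 12.1 CPM in the control (log2 fold change -0.67 ± 0.19, adjusted p = 0.0353). The call of Prodh was lost without knockout a (adjusted p = 0.274), knockout b (0.139), control a (0.125) or control c (0.0505). It was also lost under scaling to column totals (-0.55, adjusted p = 0.0662), with no mean-variance trend (0.0723) and with the control SD only (0.069).

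Complex III oxidises the reduced lipid. Of its 9 nuclear subunits 4 were called lower and none higher (median -0.03), against 12.9% and 13.3% of all genes. With no mean-variance trend 1 of the 9 was called lower, beside 1646 of all 15116 genes. Uqcrfs1, the Rieske iron-sulfur protein, had 597 and 546 CPM in the knockout, against 733, 741 and 741 CPM in the control (log2 fold change -0.37 ± 0.06, limma adjusted p = 0.0022). Uqcrh had 783 ± 23.3 CPM in the knockout and 949.6 ± 15.0 CPM in the control (log2 fold change -0.28 ± 0.05, adjusted p = 0.00566), and Uqcrb 718 ± 14.4 CPM in the knockout and 861 ± 34.9 CPM in the control (log2 fold change -0.26 ± 0.06, adjusted p = 0.0107). Under scaling to column totals Uqcrfs1 stayed called at -0.24 (adjusted p = 0.0154), whereas Uqcrh was at -0.15 (0.0678) and Uqcrb at -0.13 (0.121), and the list then had 2 subunits called higher and 1 lower. Without the lower knockout value Uqcrh had an adjusted p of 0.0711 and Uqcrb one of 0.103, and without the higher one Uqcrb had 0.061.

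**Figure D4:**
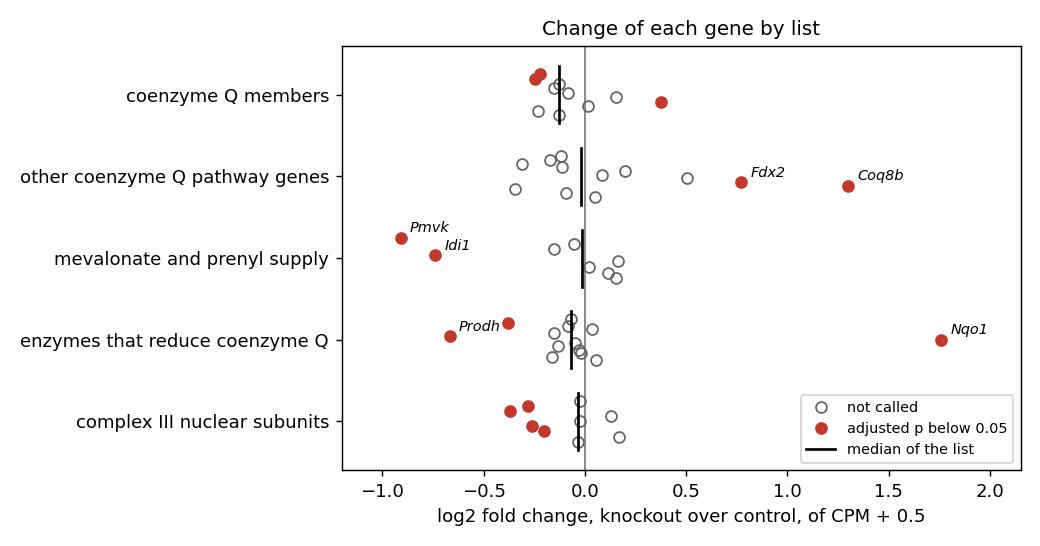
Log2 fold change of CPM + 0.5, knockout over control (horizontal axis), of each gene in 5 lists, with filled points for genes at an adjusted p below 0.05, open points for the others and a black bar for the median of the list. The 10 coenzyme Q members lie between -0.25 and 0.37, with medians of all 5 lists between -0.13 and -0.02, and Nqo1 (1.76), Coq8b (1.30) and Pmvk (-0.91) lie farthest out.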

How the data were processed

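Heart RNA was sequenced for the authors by a company as 3′ tags (oligo-dT priming, with molecular identifiers). The submitters' processing notes list edgeR 4.0.16, featureCounts, Subread 2.1.1, SAMtools 1.22.1 and STAR 2.7.11 and the GRCm39 build, without saying what each was used for. The deposited signal is the mean normalized CPM of each group, to 6 digits, with its SD, and 15116 genes are listed. The deposited columns of the authors' own comparison (log2 fold change, F, p, adjusted p, average log2 CPM) were not used.

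Group means + 0.5 were compared on the log2 scale with limma 3.58.1 (R 4.3.3), with variances from the deposited SDs, a mean-variance trend and Benjamini-Hochberg adjustment over all listed genes, at a threshold of 0.05. On simulated data for 13783 genes the fit recovered 90 of 100 changes of 1 and 99 of 100 of 2 (log2). It made 10 false calls. Every simulated gene had the same spread between libraries, the median of the control, apart from counting noise. Real genes differ in spread, so these counts do not give the error rate for the real data. Recovery of smaller changes, such as those of Coq3, Coq8a and Coq9, was not tested. Single libraries were worked back as whole reads or simple fractions of a read (tolerance 0.02 reads) for 12752 genes (84.4%), and 391 of 394 simulated control genes so solved were right. Fractions of a read may come from reads shared between features, which was not tested. For Coq7, Coq9 and Coq10a other fractional combinations also matched the control mean and SD, and the whole-read one was taken. Named genes were the 10 members, Immt, Pdss1, Pdss2, Coq8b and up to 3 called genes per further list, by smallest p. Members and lists were chosen with earlier results of these data known. Alternatives were 2 scalings, a minimum mean of 5 CPM, pseudocounts of 0.1 and 2, no trend, the control SD alone, the lower or higher knockout value and each control library left out and, added after seeing the data, a fit on the single libraries and that fit without each knockout library. Promoters are RefSeq, GRCm38.p6. The promoter tables matched 9 of 10 members.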

Additional observations from a re-analysis of the deposited data

How the results depend on the processing

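Coq3 kept its direction under all 15 alternatives and its call under 9, and Coq8a and Coq9 kept direction under all 15 and the call under 5 each. The 3 calls among the 10 members fell to 1 under scaling to column totals, under scaling to totals that leave out mitochondrially encoded transcripts and with the control SD only, and to 0 with no mean-variance trend. Leaving out 1 library or knockout value gave between 0 and 4 calls among the members, and between 1257 and 3956 among all genes, against 3958 from the group means. The fits without a named library cover 12752 genes, of which 2937 were called with all 5 libraries, 3956 without control c and 1257 without knockout b. A lone knockout library is assumed to vary like the control. The 11 calls among 42 genes of the 4 neighbouring lists stood beside 26.2% of all genes called. With no trend they were 7, and the calls among all genes fell from 3958 to 3352. With single libraries worked back they were 7 of the 32 genes with values, beside 2937 of 12752 genes. They were 5, 7 and 8 of these 32 without control a, b and c, and fewer than 5 without either knockout library. Under scaling to column totals the 11 calls among the 42 genes split into 7 higher and 4 lower, against 3 higher and 8 lower as deposited. Immt stayed between -3.95 and -3.65 on the log2 scale. Under scaling to column totals Coq5 was at 0.0426, Coq7 at 0.00108, Coq10a at 0.00175 and Pdss1 at 0.00864. With 1 library left out Coq2 ranged from -0.0909 to 0.116 and Pdss1 from -0.282 to 0.0499. The cause was not tested. No paired analysis was possible because the deposited columns carry no replicate numbers. Precision is limited by 2 knockout libraries and, for Coq4, by 116 to 157 reads per library.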
